A study of Mus musculus with 19 samples.

Results

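Tumours with a knockdown of LDHA were compared with control tumours in mice that received anti-CTLA-4, using every gene of the deposited counts. The comparison holds 10 of the 19 samples, chosen by their labels alone, with 5 LDHA-KD tumours and 5 control tumours. All were grown in BALB/cAnN mice from 4T1, a mouse mammary carcinoma line. The LDHA-KD tumours came from the line labelled 4T1-KD and the control tumours from the line labelled 4T1-Sc. The labels give 1000000 implanted cells and 3 treatments with the antibody, begun on day 3 and spaced 3 days apart. The other 9 samples were 5 LDHA-KD and 4 control tumours of mice given IgG in place of anti-CTLA-4, and they serve here as a second, separate set of the same pair of lines. The series asks how blockade of CTLA-4 acts in tumours with low glycolysis and what becomes of regulatory T cells there.

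The labels do not say whether each line was a clone or a pool, and they give neither the age nor the sex of the mice. Each genotype was 1 line, so the knockdown and any other difference between the lines cannot be told apart. No label states that each replicate came from a separate animal, and p-values therefore measure the spread between these samples.

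Lactate dehydrogenase A, the subunit encoded by Ldha, turns pyruvate into lactate at the end of glycolysis and regenerates the NAD+ that glycolysis uses. Tumours that rely on glycolysis export lactate and acidify their surroundings, and lactate is known to restrain cytotoxic T cells while regulatory T cells tolerate it better. CTLA-4 is an inhibitory receptor of T cells that competes with the costimulatory receptor CD28 for its ligands and is carried at high level by regulatory T cells. 4T1 tumours are known for heavy infiltration by myeloid cells.

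Gene counts per tumour, in units of 1000000, ran from 34.7 to 43.3, with means of 38.7 ± 2.95 in LDHA-KD tumours and 38.7 ± 3.14 in control tumours (SD, n = 5 each; exact permutation test, two-sided, p = 0.992). A floor of 3 counts corresponded to 0.0693 to 0.0865 counts per 1000000 gene counts (CPM) and covers counting error only. Reads outside genes made up 11.2 ± 1.99% of records in LDHA-KD tumours and 9.53 ± 0.662% in control tumours (exact permutation test, two-sided, p = 0.111). A principal component analysis of the 10 tumours put 47.8% of variance on the first axis, where LDHA-KD and control tumours lay at opposite ends. The second axis took 20%, and there replicates 3 and 5 of both groups lay at 1 end, so counts are also given without those 4 libraries where that changes them by more than 1.5-fold. The summed level of 11 adipocyte genes stood at 173.6 and 265.5 CPM in LDHA-KD replicates 3 and 5, against 138.6 to 245.2 CPM in the other LDHA-KD tumours, and at 447.1 and 998 CPM in control replicates 3 and 5, against 143 to 248.5 CPM in the other control tumours. Squamous epithelial genes, picked for their weight at the other end of that axis, were also summed. Their sum was 5.14 and 0.320 CPM in LDHA-KD replicates 3 and 5, against 30.25 to 158.3 CPM in the other LDHA-KD tumours. It was 7.29 and 7.39 CPM in control replicates 3 and 5, against 6.82 to 31.64 CPM in the other control tumours.

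**Figure D1:**
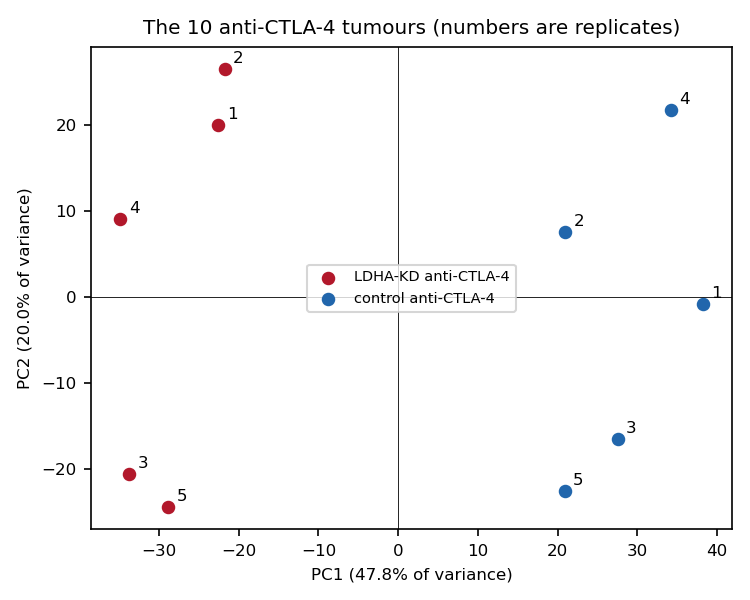
Positions of the 10 anti-CTLA-4 tumours on the first and second principal components of the 2000 most variable genes, with the share of variance on each axis and the replicate number beside each point. LDHA-KD tumours lie on the left and control tumours on the right, and replicates 3 and 5 of both groups lie lowest.

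Ldha (chromosome 7, 46841475 to 46855627, plus strand) stood at 541 ± 38.2 CPM in LDHA-KD tumours and 1914 ± 257 CPM in control tumours (SD, n = 5 each; log2 fold change -1.82, SE 0.11, adjusted p = 6.23e-10). No LDHA-KD tumour reached the level of any control tumour. Ldhb (chromosome 6, 142490249 to 142507957, minus strand), the subunit that favours the reverse reaction, had 6.01 ± 1.32 CPM in LDHA-KD tumours and 5.54 ± 1.01 CPM in control tumours and did not pass the threshold (log2 fold change 0.12, SE 0.19, adjusted p = 0.644).

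Of 16763 genes tested, 6711 differed between LDHA-KD and control tumours at an adjusted p below 0.05, which is 40.0% of them. LDHA-KD tumours were higher for 3390 genes, or 20.2% of those tested, and lower for 3321, or 19.8%. More than 2-fold higher were 887 genes (5.29%), and more than 2-fold lower were 511 (3.05%). In 1949 genes (11.6%) every LDHA-KD tumour lay above every control tumour, and in 1943 (11.6%) every LDHA-KD tumour lay below. The median log2 fold change over all genes was 0.01. When libraries were scaled by their total gene counts alone, that median moved to 0.10, and the split was 4445 higher against 2369 lower. Without replicates 3 and 5 of both groups, 2131 genes were higher and 2177 lower. With shares this large among all genes, the gene groups below are read against 20.2% higher and 19.8% lower. Counts of members whose groups did not overlap are read against 11.6% in either direction.

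The gene groups split by role. Among the 103 lymphoid genes tested, LDHA-KD tumours were higher in 84 and lower in 2. Of 105 genes of myeloid cells and antigen presentation, 67 were higher and 3 lower. The other groups leaned the other way or neither way: of 183 genes of metabolism 15 were higher and 70 lower, of 37 proliferation genes 0 were higher and 21 lower, and of 55 genes of the tumour cells' epithelial and mesenchymal state 5 were higher and 25 lower. Of 58 stromal genes 5 were higher and 16 lower, and of 133 genes of cytokine, growth factor and protease signalling 18 were higher and 35 lower.

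**Figure D2:**
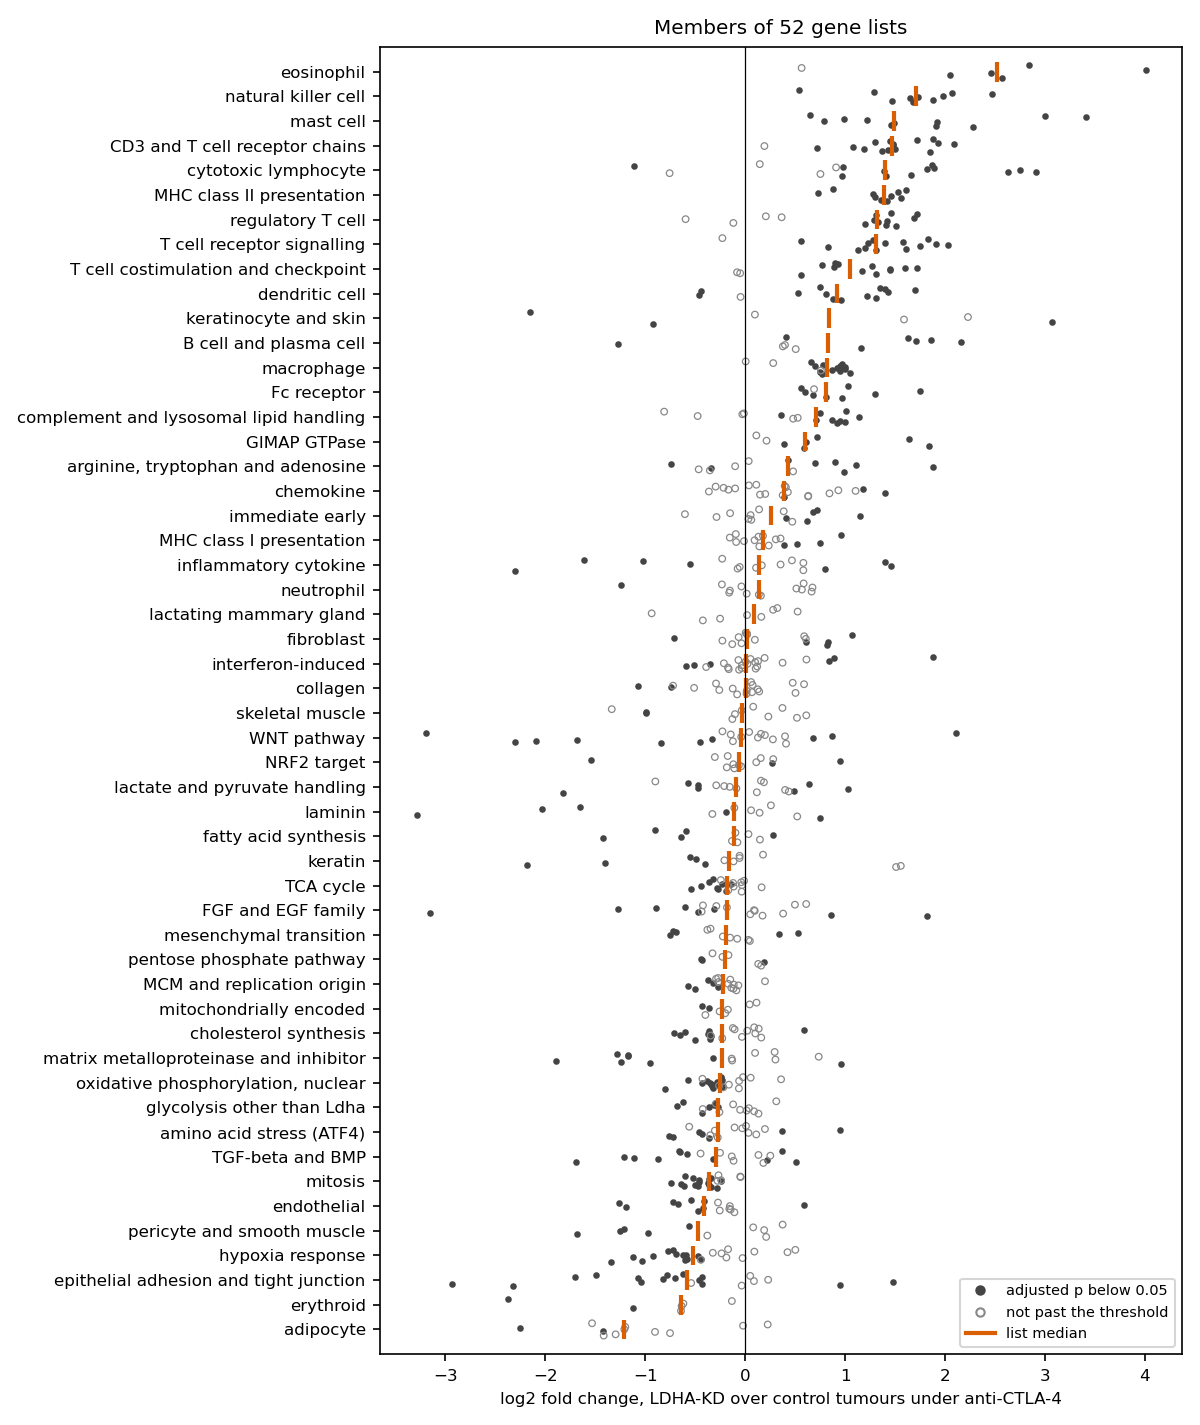
Log2 fold change of LDHA-KD over control tumours under anti-CTLA-4 for the tested members of 52 gene lists, 1 row per list ordered by its median (orange bar). Filled points passed an adjusted p of 0.05 and open points did not. Eosinophil, natural killer and mast cell lists stand at the top, and hypoxia, epithelial adhesion, erythroid and adipocyte lists at the bottom.

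Several of the largest decreases were in genes of epithelial cells, the type from which 4T1 derives. Lama3 and Lamb3 encode chains of laminin-332, the basement membrane protein that anchors epithelial cells through hemidesmosomes, and both fell. Lama3 had 24.8, 61.9, 50.3, 38.0 and 39.7 CPM in LDHA-KD tumours, against 366, 455, 493, 416 and 368 CPM in control tumours (log2 fold change -3.29, SE 0.21, adjusted p = 1.86e-09). Lamb3 (chromosome 1, 193207699 to 193343878, plus strand) had 53.4, 64.7, 88.9, 71.6 and 92.2 CPM in LDHA-KD tumours, against 324, 300.2, 383, 271 and 240 CPM in control tumours (log2 fold change -2.03, SE 0.18, adjusted p = 8.37e-08). For both chains the highest LDHA-KD tumour lay below the lowest control tumour. For Lama3, among the 15 largest decreases named below, this was given by the choice of those genes. Lamb1, a chain of laminins found in most basement membranes, also fell (-0.19), while Lama1, an alpha chain of other laminins, rose (0.75), though not without replicates 3 and 5 of both groups (adjusted p = 0.171).

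Cell adhesion genes followed. Of 20 genes of epithelial adhesion and tight junctions tested, 13 fell and 2 rose, with a median log2 fold change of -0.58. Epcam (chromosome 17, 87635979 to 87651129, plus strand), an adhesion molecule of carcinoma cells, had 102, 147, 77.1, 81.2 and 68.7 CPM in LDHA-KD tumours, against 556, 453, 415, 537 and 426 CPM in control tumours (log2 fold change -2.33, SE 0.18, adjusted p = 1.55e-08). Cldn4 (chromosome 5, 134945119 to 134946934, minus strand), a tight junction claudin, had 28.9, 39.2, 26.1, 21.4 and 26.1 CPM in LDHA-KD tumours, against 290.4, 193, 237, 186 and 181 CPM in control tumours (log2 fold change -2.94, SE 0.16, adjusted p = 4.01e-10). The groups did not overlap for either gene. Cldn4 was among the 15 largest decreases named below, so for it the separation was given by the choice. Jup, which encodes plakoglobin of desmosomes and adherens junctions, also fell (-1.71, SE 0.14), as did Ovol1, an epithelial transcription factor (-1.49, SE 0.25), Dsp, the desmosomal plaque protein desmoplakin (-1.07, SE 0.14), and Ocln, the tight junction protein occludin (-1.04, SE 0.21). Cdh1, the gene of E-cadherin, had a log2 fold change of -0.03, adjusted p = 0.788.

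The family did not move as a block. Cldn7 (chromosome 11, 69964779 to 69967885, plus strand), another claudin, had 24.9, 23.3, 22.7, 22.4 and 24.5 CPM in LDHA-KD tumours, against 9.38, 9.65, 7.73, 7.67 and 7.75 CPM in control tumours (log2 fold change 1.48, SE 0.09, adjusted p = 2.30e-09), so that each LDHA-KD tumour lay above each control tumour. Cldn1 also passed in that direction (0.95), but not in limma voom or when LDHA-KD replicate 4, control replicate 1 or control replicate 3 was left out. Among 12 keratins tested, 5 fell and 0 rose. Krt7, a keratin of simple epithelia, averaged 84.2 ± 28.3 CPM in LDHA-KD tumours and 383 ± 30.5 CPM in control tumours (-2.19, SE 0.20), and Krt14, a keratin of basal cells, averaged 97.9 ± 53.2 CPM in LDHA-KD tumours and 259 ± 67.5 CPM in control tumours (-1.40, SE 0.28). The much more abundant simple-epithelium keratins Krt8 (-0.40) and Krt18 (-0.49) had smaller log2 fold changes, and neither passed without replicates 3 and 5 of both groups. In that setting, 3 of the 12 keratins fell. Krt5 (1.51, adjusted p = 0.0925) and Krt6a (1.56, adjusted p = 0.258), keratins of squamous epithelium, varied too widely between tumours of a group to pass.

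Trp63 (chromosome 16, 25683763 to 25892102, plus strand), which encodes p63, the transcription factor of basal epithelial cells, had 4.53, 4.81, 5.04, 7.43 and 2.53 CPM in LDHA-KD tumours, against 30.1, 13.9, 22.0, 23.1 and 19.6 CPM in control tumours (log2 fold change -2.16, SE 0.30, adjusted p = 2.00e-05). No LDHA-KD tumour reached a control tumour. Among genes of mesenchymal transition, 3 of 12 fell and 2 rose, with a median of -0.19. Without replicates 3 and 5 of both groups, 5 fell and 1 rose, with a median of -0.55, and 5 also fell in limma voom, with the replicate numbers as a block, or without LDHA-KD replicate 3. Twist1, a transcription factor that drives the transition, averaged 21.3 ± 1.83 CPM in LDHA-KD tumours and 36.0 ± 5.55 CPM in control tumours (-0.76, SE 0.11), and Tnc, a matrix glycoprotein of wounds and tumours, averaged 637 ± 216 CPM in LDHA-KD tumours and 1048 ± 40.9 CPM in control tumours (-0.72, SE 0.16). Zeb2, another transcription factor of the transition that macrophages also express, averaged 164 ± 21.8 CPM in LDHA-KD tumours and 114 ± 6.36 CPM in control tumours (0.53, SE 0.09). Regulators of the epithelial state and of the transition thus fell alike in some cases. Lymphoid and myeloid genes moved the other way in the same tumours, as given below, and their part in the fall of epithelial genes was not tested.

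The 15 largest decreases and 15 largest increases were chosen among genes whose groups did not overlap, so the separation of their groups was given by the choice. Lama3 and Cldn4, given above, were among the decreases. So were Ube2ql1, Fam83a, Otop1, Ociad2, Padi3 and Adamts8, which were 5.285-fold to 6.205-fold lower. The rest of the decreases included growth factors and their helpers. Fgfbp1, a carrier that releases fibroblast growth factors from the matrix, averaged 20.3 ± 4.78 CPM in LDHA-KD tumours and 181 ± 49.2 CPM in control tumours (-3.15, SE 0.24). Vegfc, the growth factor of lymphatic vessels, averaged 9.89 ± 1.84 CPM in LDHA-KD tumours and 56.2 ± 9.11 CPM in control tumours (-2.51, SE 0.17). Rspo3 (-3.20, SE 0.32) and Wnt10b (-2.64, SE 0.23) are a booster and a ligand of WNT signalling. Rps6ka6, a kinase of the ribosomal S6 kinase family, had a log2 fold change of -2.85, SE 0.30. Psg17 (-2.61) and Prl3d1 (-2.49) belong to placental gene families whose close copies may share reads, and Prl3d1 did not pass without replicates 3 and 5 of both groups (adjusted p = 0.0604).

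The increases were of mixed kinds too. Gnao1 (chromosome 8, 93809966 to 93969388, plus strand), the alpha subunit of a G protein best known from neurons, had 12.1, 11, 8.29, 11.4 and 7.38 CPM in LDHA-KD tumours, against 0.50, 0.983, 0.182, 0.590 and 0.573 CPM in control tumours (log2 fold change 4.13, SE 0.28, adjusted p = 3.91e-09). Ibsp (chromosome 5, 104299171 to 104311469, plus strand), the bone matrix protein bone sialoprotein, had 49.2, 50, 26.1, 35.0 and 22.1 CPM in LDHA-KD tumours, against 2.47, 3.02, 1.84, 4.10 and 2.87 CPM in control tumours (log2 fold change 3.67, SE 0.24, adjusted p = 3.85e-09). Tnip3 (chromosome 6, 65525313 to 65634040, plus strand), which encodes an inhibitor of NF-kappa-B signalling, had 24.7, 21.8, 20.2, 25.2 and 23 CPM in LDHA-KD tumours, against 1.59, 1.76, 1.63, 1.90 and 2.32 CPM in control tumours (log2 fold change 3.64, SE 0.15, adjusted p = 5.45e-12). Tnip3 was the most even of the 3 within each group, with an SD of 2.06 CPM around 23 CPM in LDHA-KD tumours and 0.296 CPM around 1.84 CPM in control tumours. Nptx1, a secreted pentraxin, averaged 244 ± 51.2 CPM in LDHA-KD tumours and 29.1 ± 11.5 CPM in control tumours (3.07, SE 0.24), and Ace, the angiotensin-converting enzyme, averaged 366 ± 67.5 CPM in LDHA-KD tumours and 60.5 ± 14.5 CPM in control tumours (2.59, SE 0.18). Wisp2, a secreted CCN family protein linked to WNT signalling, averaged 215 ± 19.6 CPM in LDHA-KD tumours and 42.4 ± 10.5 CPM in control tumours (2.34, SE 0.19).

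Tnfrsf19, a receptor of the TNF family (3.32, SE 0.29), and Scara5, a ferritin receptor (3.00, SE 0.23), also rose. The remaining 7 of the 15 were Mrgprb1, Alox15, Prf1, Slc14a1, Amigo2, Cdon and Ptpru, with log2 fold changes between 2.39 and 3.41. Prf1, Alox15 and Mrgprb1 are genes of cytotoxic lymphocytes, eosinophils and macrophages, and mast cells and are taken up below. A processed pseudogene, Rps6-ps1, outside this choice and named after its values were seen, averaged 25.2 ± 4.82 CPM in LDHA-KD tumours and 0.457 ± 0.157 CPM in control tumours (5.80, SE 0.19), and reads of the gene it was copied from may be counted there.

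**Figure D3:**
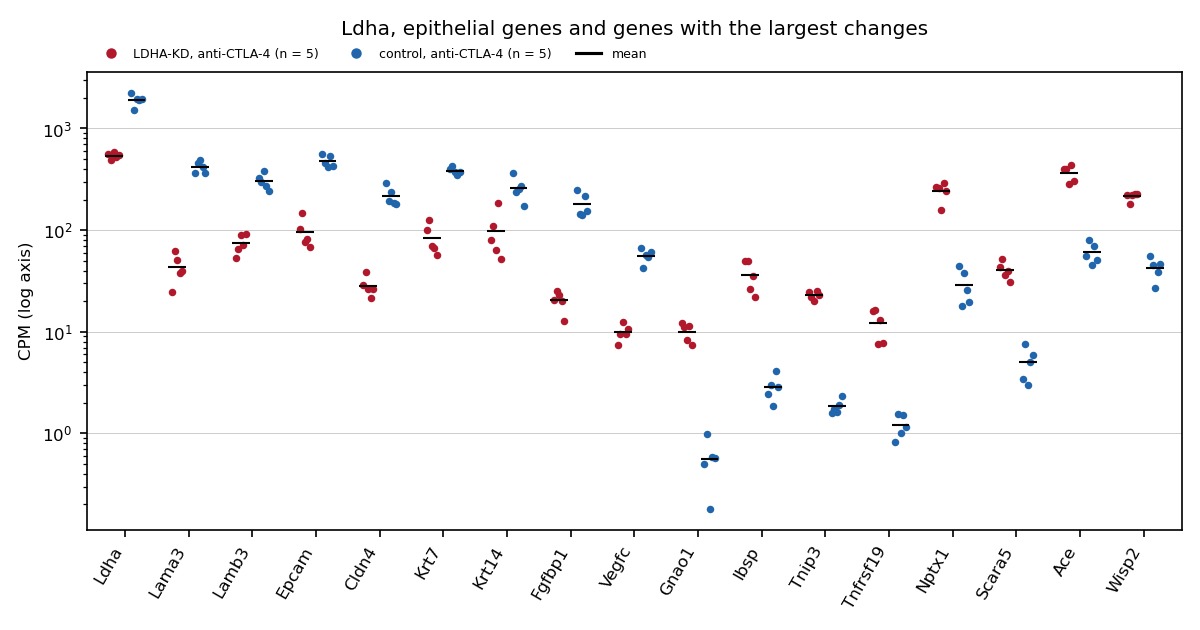
CPM on a log axis of Ldha, epithelial genes and genes with the largest changes in each anti-CTLA-4 tumour, LDHA-KD left of control, with a bar at each group's mean. From Ldha to Vegfc the LDHA-KD points lie below the control points except for Krt14, where 1 LDHA-KD tumour overlaps, and from Gnao1 on they lie above.

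Growth factor pathways were mixed. Of 21 WNT pathway genes, 7 fell and 3 rose, and the median was -0.04, or 0.06 when libraries were scaled by total counts. Wnt7a, a ligand, fell (-2.30, SE 0.19), while Sfrp1, a secreted antagonist that binds WNT ligands, averaged 72.8 ± 17.6 CPM in LDHA-KD tumours and 16.9 ± 3.37 CPM in control tumours (2.11, SE 0.17). Of 18 genes of TGF-beta and BMP signalling, 8 fell and 3 rose, with 1 higher without replicates 3 and 5 of both groups, without LDHA-KD replicate 3, or without control replicate 5. Tgfb2, a ligand, averaged 4.14 ± 0.741 CPM in LDHA-KD tumours and 13.3 ± 1.95 CPM in control tumours (-1.69, SE 0.13), Bmp7, another ligand, had a log2 fold change of -1.21, SE 0.18, and Id3, a target gene of BMP signalling, had -0.67, SE 0.10. Among 19 genes of the FGF and EGF families, 6 fell, with Erbb3, a receptor of neuregulins, at -1.27, SE 0.13, and 2 rose. Fgf1 was one of those, with 8.81 ± 3.92 CPM in LDHA-KD tumours and 2.49 ± 0.815 CPM in control tumours (1.82, SE 0.27); without replicates 3 and 5 of both groups its log2 fold change was 2.49, and 1 gene of these families rose there, as it did without any one of LDHA-KD replicates 3 and 5 and control replicates 1 and 4. Of 14 matrix metalloproteinases and inhibitors, 7 fell and 1 rose, or 0 rose without replicates 3 and 5 of both groups, and Mmp10, stromelysin-2, averaged 59.3 ± 7.57 CPM in LDHA-KD tumours and 221 ± 63.7 CPM in control tumours (-1.90, SE 0.24).

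Hypoxia-responsive genes were lower as a group. Hypoxia-inducible factors bind the core ACGTG in promoters of glycolytic, vascular and pH-regulating genes when oxygen is low. Of 22 such genes tested, 13 fell and 0 rose, with a median of -0.52; without control replicate 1, 8 fell. Of the 22, 2 rose without LDHA-KD replicate 1 or control replicate 5, and 1 rose without LDHA-KD replicate 2 or when libraries were scaled by total counts. Ddit4 (chromosome 10, 59949669 to 59951834, minus strand), an inhibitor of mTORC1 induced by hypoxia, had 115, 117, 122, 91.2 and 106 CPM in LDHA-KD tumours, against 238, 201, 226, 205 and 177 CPM in control tumours (log2 fold change -0.92, SE 0.12, adjusted p = 1.31e-05). Adm (chromosome 7, 110627661 to 110629820, plus strand), which encodes the vasodilator adrenomedullin, had 27.2, 32.3, 58.2, 28.9 and 55.4 CPM in LDHA-KD tumours, against 153, 63.8, 110.1, 87.3 and 99.6 CPM in control tumours (log2 fold change -1.35, SE 0.30, adjusted p = 0.00152). Vegfa, the main growth factor of blood vessels, had 114, 115, 257, 162 and 239 CPM in LDHA-KD tumours, against 485, 249, 471, 270.4 and 336 CPM in control tumours (log2 fold change -1.03, SE 0.27, adjusted p = 0.00485). The groups were apart for Ddit4 and Adm and overlapped for Vegfa, where LDHA-KD replicate 3 lay just above control replicate 2. Within both groups, the 3 control tumours with most Adm and the 2 LDHA-KD tumours with most Adm were also those with most Vegfa.

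The promoters of Ddit4 and P4ha1 are shown because both genes were lower in every LDHA-KD tumour than in every control tumour and hold the hypoxia core. They are RefSeq promoters of build GRCm38.p6, from 250 bases before to 50 bases after the start site, Ddit4 at chr10:59951721-59952020 on the minus strand and P4ha1 at chr10:59323046-59323345 on the plus strand, with ACGTG or its reverse complement CACGT in capitals.
Ddit4: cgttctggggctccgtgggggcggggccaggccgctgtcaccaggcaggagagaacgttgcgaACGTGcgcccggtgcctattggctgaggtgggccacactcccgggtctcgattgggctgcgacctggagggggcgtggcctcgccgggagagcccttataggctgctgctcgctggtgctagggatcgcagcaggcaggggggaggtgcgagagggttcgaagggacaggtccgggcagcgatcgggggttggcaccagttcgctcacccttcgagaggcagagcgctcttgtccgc
P4ha1: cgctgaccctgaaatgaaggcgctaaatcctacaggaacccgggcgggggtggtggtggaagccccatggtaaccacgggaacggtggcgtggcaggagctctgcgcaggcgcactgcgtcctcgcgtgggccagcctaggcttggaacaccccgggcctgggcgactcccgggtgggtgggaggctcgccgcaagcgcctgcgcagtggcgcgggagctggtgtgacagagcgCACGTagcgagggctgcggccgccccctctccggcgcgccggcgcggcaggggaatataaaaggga
In Ddit4 the core begins 187 bases before the start site, and in P4ha1 it begins 16 bases before. Of the 20 hypoxia genes with a promoter in the table, 12 held ACGTG on either strand (60%), against 5315 of 27025 promoters of the same length (19.7%). Adm and Vegfa, described above, held 0 matches. The list names genes known to respond to hypoxia, so the share is not a result of these tumours. A match is no evidence of binding in them. The sequence CACGTG holds both forms and was counted once per promoter. P4ha1, a prolyl hydroxylase that makes collagen ready for folding, averaged 202 ± 34.1 CPM in LDHA-KD tumours and 304 ± 41.0 CPM in control tumours (-0.59, SE 0.15). Slc2a1, the glucose transporter GLUT1, passed only just (-0.62, adjusted p = 0.0497) and failed under 17 of 27 other settings. Ndrg1, a stress-responsive gene, had 986 ± 169 CPM in LDHA-KD tumours and 2145 ± 649 CPM in control tumours (-1.12, SE 0.21).

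Genes of glycolysis apart from Ldha were lower in part and by small amounts. Of 17 genes tested, 7 fell and 0 rose, with a median of -0.27, and 3 fell when libraries were scaled by total counts. Leaving out any one of LDHA-KD replicates 1, 2 and 4 and control replicates 1, 3 and 5 left 4. Pgk1 (chromosome X, 106187100 to 106203699, plus strand), phosphoglycerate kinase, had 299, 294, 316, 291 and 333 CPM in LDHA-KD tumours, against 584, 357, 454, 521 and 535 CPM in control tumours (log2 fold change -0.68, SE 0.14, adjusted p = 7.00e-04). Tpi1, triosephosphate isomerase, averaged 818 ± 32.2 CPM in LDHA-KD tumours and 1052 ± 102 CPM in control tumours (-0.36, SE 0.09), and Hk2, the hexokinase induced in many tumours, averaged 117 ± 21.5 CPM in LDHA-KD tumours and 158 ± 13.2 CPM in control tumours (-0.43, SE 0.11). The summed level of the 17 genes ran from 7637 to 9654 CPM in LDHA-KD tumours and from 9053 to 12610 CPM in control tumours.

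Genes that handle lactate and pyruvate had no common direction. Slc16a7 (chromosome 10, 125219270 to 125389465, minus strand), the high-affinity monocarboxylate transporter MCT2, had 3.28, 3.62, 2.66, 4.17 and 2.45 CPM in LDHA-KD tumours, against 0.852, 1.92, 1.89, 1.53 and 1.69 CPM in control tumours (log2 fold change 1.03, SE 0.23, adjusted p = 0.00174). Slc16a1, the transporter MCT1, averaged 558 ± 105 CPM in LDHA-KD tumours and 399 ± 51.6 CPM in control tumours (0.49, SE 0.12). Pdk3, a kinase that shuts pyruvate dehydrogenase, averaged 36.6 ± 1.22 CPM in LDHA-KD tumours and 54.6 ± 5.49 CPM in control tumours (-0.58, SE 0.09), while its relative Pdk2 averaged 7.02 ± 0.577 CPM in LDHA-KD tumours and 4.52 ± 0.590 CPM in control tumours (0.63, SE 0.12). Both transporters were thus higher, and the 2 kinases moved in opposite directions. In all, 3 of 17 genes rose and 4 fell, Ldha among those, and 5 rose without LDHA-KD replicate 2. The counts of 3 and 4 lay near the shares over all genes tested, 20.2% higher and 19.8% lower.

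Mitochondrial genes were lower by small amounts. Of 24 nuclear genes of oxidative phosphorylation, 15 fell and 0 rose, with a median of -0.25; 8 fell when libraries were scaled by total counts, and 6 fell and 1 rose without replicates 3 and 5 of both groups. Without LDHA-KD replicate 3 the count that rose was also 1. Ndufa1 (chromosome X, 37187588 to 37191163, minus strand), a subunit of complex I, had 50.8, 37.3, 34.9, 40.3 and 32.7 CPM in LDHA-KD tumours, against 74.4, 55.7, 69.5, 70.4 and 71.7 CPM in control tumours (log2 fold change -0.80, SE 0.10, adjusted p = 7.72e-06). The groups did not overlap, and the median of the list was far smaller than this fall. Of 18 TCA cycle genes, 9 fell and 0 rose, and 3 fell without those 4 libraries; Idh3a, a subunit of isocitrate dehydrogenase, averaged 103 ± 10.9 CPM in LDHA-KD tumours and 149 ± 6.87 CPM in control tumours (-0.54, SE 0.07). Genes encoded in the mitochondrion had 2 of 8 lower, or 0 without replicates 3 and 5 of both groups. Both genes lost the call under several settings. Mitochondrial genes took 2.37 ± 0.424% of counts in LDHA-KD tumours and 2.71 ± 0.385% in control tumours (exact permutation test, two-sided, p = 0.214).

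Some lipid and amino acid genes differed, where 20.2% of all genes tested were higher and 19.8% lower. Counts near those shares show nothing particular to a list. Of 19 genes of cholesterol synthesis, 8 fell and 1 rose, and 5 fell when libraries were scaled by total counts, without replicates 3 and 5 of both groups, or without any one of LDHA-KD replicate 1 and control replicates 1, 3 and 4. Cyp51, lanosterol demethylase, averaged 91.7 ± 7.57 CPM in LDHA-KD tumours and 151 ± 20.6 CPM in control tumours (-0.72, SE 0.13), and Fdft1, squalene synthase, had a log2 fold change of -0.65, SE 0.13. Dhcr7, which catalyses the last step to cholesterol, rose (0.58, SE 0.09). Scd2, a stearoyl-CoA desaturase, fell (-0.65, SE 0.12), as did Me1, malic enzyme, which yields NADPH (-0.90, SE 0.12). Scd1, its adipocyte-rich relative, also passed (-1.42), but control replicate 5 alone held 1128 CPM against 125 to 469 CPM in the other control tumours and 118 to 203 CPM in LDHA-KD tumours, and its log2 fold change was -0.66 without that replicate and did not pass. Of 17 genes of the ATF4 response to amino acid shortage, 5 fell and 2 rose, with 1 higher without replicates 3 and 5 of both groups or without any one of LDHA-KD replicate 5 and control replicates 1, 4 and 5; Trib3, a pseudokinase of that response, fell (-0.76, SE 0.11), and Slc7a11, the cystine importer, rose (0.95, SE 0.20). Of 10 fatty acid synthesis genes 4 fell and 1 rose, of 8 pentose phosphate pathway genes 2 fell and 1 rose, and of 13 NRF2 target genes tested 1 fell and 2 rose. Of these, without replicates 3 and 5 of both groups, 0 fatty acid genes and 1 NRF2 target rose and 1 pentose phosphate gene fell. The fatty acid gene that rose also lost its call without any one of LDHA-KD replicates 2, 4 and 5 and control replicates 1 and 5. The count of pentose phosphate genes that rose was 0 without control replicate 2 or 4 and 2 without control replicate 5, and 4 NRF2 targets fell without LDHA-KD replicate 1.

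Enzymes of routes known to restrain T cells did not move as one. Among 13 genes of arginine, tryptophan and adenosine metabolism, 6 rose and 2 fell. Ido1 (chromosome 8, 24584136 to 24597009, minus strand), which degrades tryptophan and is induced by interferon-gamma, had 26.3, 12.1, 23, 29.6 and 26.2 CPM in LDHA-KD tumours, against 5.08, 5.06, 4.41, 2.63 and 14.7 CPM in control tumours (log2 fold change 1.89, SE 0.36, adjusted p = 4.40e-04). Only LDHA-KD replicate 2 fell within the control range, below control replicate 5. Arg1, the arginase of myeloid cells, averaged 1490 ± 356 CPM in LDHA-KD tumours and 749.6 ± 149 CPM in control tumours (0.99, SE 0.24) but did not pass without replicates 3 and 5 of both groups (adjusted p = 0.115). Tdo2, another tryptophan-degrading enzyme, had a log2 fold change of 1.11, SE 0.17. Nt5e, the enzyme CD73 that makes adenosine, averaged 939 ± 40.7 CPM in LDHA-KD tumours and 1570 ± 223 CPM in control tumours (-0.74, SE 0.11). The other gene that fell was Odc1, ornithine decarboxylase, which acts on a product of arginase (-0.34, SE 0.08).

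Proliferation genes were lower. Of 21 genes of mitosis, 16 fell and 0 rose, with a median of -0.36, and 10 fell without replicates 3 and 5 of both groups. Birc5 (chromosome 11, 117849251 to 117855743, plus strand), the survivin of the chromosomal passenger complex, had 81.8, 72.8, 65.8, 77.0 and 79.9 CPM in LDHA-KD tumours, against 135, 105, 148, 121 and 122 CPM in control tumours (log2 fold change -0.74, SE 0.11, adjusted p = 3.98e-05). Aurka, the kinase of spindle poles, averaged 33.4 ± 1.74 CPM in LDHA-KD tumours and 52.2 ± 4.96 CPM in control tumours (-0.65, SE 0.09), and Cdk1, the kinase that drives entry into mitosis, averaged 141 ± 33.0 CPM in LDHA-KD tumours and 215 ± 26.3 CPM in control tumours (-0.61, SE 0.14). Of 16 genes of the MCM helicase and replication origins, 5 fell, among them Mcm7 (-0.57, SE 0.08), and 0 rose; 3 fell and 1 rose without replicates 3 and 5 of both groups, 1 rose without LDHA-KD replicate 3, and 8 fell without LDHA-KD replicate 1. Mki67, the proliferation antigen Ki-67, passed (-0.28, adjusted p = 0.0397) but not under 9 of 27 other settings.

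Genes of T cells stood higher in LDHA-KD tumours. In whole tumour RNA, more cells of a type and more RNA per cell cannot be told apart, nor fewer cells and less RNA per cell, and this holds for every cell type below. Of 16 genes of the CD3 complex and T cell receptor chains, 15 rose and 0 fell, with a median of 1.47. In 13 of the 16, every LDHA-KD tumour lay above every control tumour, against 11.6% of all genes tested. The same held for 5 of 14 costimulatory and checkpoint genes and 4 of 16 cytotoxic genes. Cd3e (chromosome 9, 44998740 to 45009627, minus strand), a signalling chain of the receptor, had 5.0, 7.48, 11, 9.88 and 7.27 CPM in LDHA-KD tumours, against 1.76, 2.04, 3.32, 1.45 and 2.65 CPM in control tumours (log2 fold change 1.85, SE 0.29, adjusted p = 7.41e-05). Cd247, the zeta chain, averaged 6.78 ± 1.07 CPM in LDHA-KD tumours and 2.39 ± 0.755 CPM in control tumours (1.5, SE 0.20). The summed level of the list ran from 102.1 to 184.7 CPM in LDHA-KD tumours and from 39.2 to 74.9 CPM in control tumours. Of 15 genes of signalling below the receptor, 14 rose. Cd28, the costimulatory receptor that shares its ligands with CTLA-4, averaged 5.64 ± 1.96 CPM in LDHA-KD tumours and 1.53 ± 0.417 CPM in control tumours (1.89, SE 0.28), and in all 12 of 14 costimulatory and checkpoint genes rose and 0 fell. Ctla4 was 2.295-fold and Cd4 2.796-fold higher in LDHA-KD tumours, with every LDHA-KD tumour above every control tumour for both. Each kept its call under the 27 other settings.

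Genes of regulatory T cells were also higher. Of 14 tested, 10 rose and 0 fell, with a median of 1.32. The count that fell was 1 without replicates 3 and 5 of both groups, in DESeq2, in limma voom, with the replicate numbers as a block, or without any one of LDHA-KD replicates 3 and 5 and control replicate 2. Foxp3 (chromosome X, 7573644 to 7595245, plus strand), their master transcription factor, had 4.70, 3.78, 9.45, 9.14 and 12.3 CPM in LDHA-KD tumours, against 2.44, 2.93, 2.85, 1.90 and 3.68 CPM in control tumours (log2 fold change 1.51, SE 0.28, adjusted p = 3.70e-04). Ccr8 (1.69), Izumo1r (1.72) and Tnfrsf18 (1.42), a chemokine receptor, a folate receptor family protein and the costimulatory receptor GITR of these cells, rose with it. The lowest LDHA-KD tumour, replicate 2, lay above the highest control tumour, replicate 5, by a narrow margin for Foxp3. Ikzf2 (-0.12, adjusted p = 0.486) and Nrp1 (0.21, adjusted p = 0.208), which other cells of a tumour also express at high level, did not pass. Nor did Tnfrsf9 (-0.60, adjusted p = 0.0528) and Lrrc32 (0.37, adjusted p = 0.174).

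Genes of cytotoxic lymphocytes and natural killer cells were also higher. Of 16 cytotoxic genes, 11 rose and 1 fell, or 2 fell without replicates 3 and 5 of both groups. Prf1 (chromosome 10, 61297833 to 61304680, plus strand), the pore-forming protein perforin, had 4.86, 1.76, 13.5, 5.86 and 6.98 CPM in LDHA-KD tumours, against 0.705, 1.24, 0.623, 1.05 and 1.27 CPM in control tumours (log2 fold change 2.75, SE 0.39, adjusted p = 2.31e-05). Gzmb (chromosome 14, 56258838 to 56262260, minus strand), the granule protease granzyme B, had 75.5, 109, 110.2, 94.2 and 67.7 CPM in LDHA-KD tumours, against 34.3, 30.7, 28.5, 34.2 and 44.3 CPM in control tumours (log2 fold change 1.41, SE 0.18, adjusted p = 9.04e-06). Both separated the groups completely, which for Prf1, among the 15 largest increases, was given by the choice. Prf1 varied widely among LDHA-KD tumours, with replicate 2 lowest and replicate 3 highest. Without replicates 3 and 5 of both groups, the log2 fold change of Prf1 was 2.05. Cd8a (chromosome 6, 71373427 to 71379173, plus strand) had 3.46, 1.11, 8.14, 5.81 and 4.50 CPM in LDHA-KD tumours, against 0.852, 1.24, 0.778, 1.23 and 1.30 CPM in control tumours (log2 fold change 2.09, SE 0.39, adjusted p = 3.42e-04), and LDHA-KD replicate 2 lay among the control tumours. Gzmf (2.63) and Gzmg (2.91) rose too, but the granzymes of this cluster are close copies whose reads may be shared. Gzme of the same cluster stood lower without passing (-0.76, adjusted p = 0.0533), and it passed in that direction without replicates 3 and 5 of both groups, in DESeq2, in limma voom, and without any one of LDHA-KD replicates 3 and 5 and control replicate 3. The gene that fell was Eomes (chromosome 9, 118478212 to 118486132, plus strand), a transcription factor of memory and effector lymphocytes, with 2.33, 2.03, 2.78, 2.43 and 2.26 CPM in LDHA-KD tumours, against 5.64, 5.15, 5.27, 3.97 and 5.64 CPM in control tumours (log2 fold change -1.12, SE 0.14, adjusted p = 7.73e-06). Its relative Tbx21, the factor T-bet, rose (1.87, SE 0.34). Ifng, the gene of interferon-gamma, did not pass (0.91, adjusted p = 0.0964), and its adjusted p ranged from 0.00283 to 0.209 over the other settings.

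All 10 natural killer cell genes tested of the 12 listed rose, with a median of 1.71. Ncr1 (chromosome 7, 4337724 to 4345164, plus strand), the receptor NKp46, had 4.60, 1.40, 5.24, 4.85 and 3.65 CPM in LDHA-KD tumours, against 0.852, 1.48, 1.56, 0.590 and 1.66 CPM in control tumours (log2 fold change 1.68, SE 0.33, adjusted p = 4.63e-04). LDHA-KD replicate 2 again lay within the control range, and the other 4 LDHA-KD tumours lay above it. Xcl1, a chemokine of these cells that attracts cross-presenting dendritic cells, averaged 2.17 ± 0.856 CPM in LDHA-KD tumours and 0.516 ± 0.155 CPM in control tumours (2.07, SE 0.28). Of 8 GIMAP genes, GTPases of lymphocyte survival, 6 rose, led by Gimap3 (1.84, SE 0.25). Of 10 B cell and plasma cell genes tested of 13 listed, 6 rose and 1 fell, or 0 fell without replicates 3 and 5 of both groups. Jchain, the joining chain of secreted antibody, averaged 2.81 ± 1.06 CPM in LDHA-KD tumours and 0.635 ± 0.681 CPM in control tumours (2.16, SE 0.47), and 1 control tumour, replicate 5, carried most of the control level; without it the log2 fold change was 3.06.

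**Figure D4:**
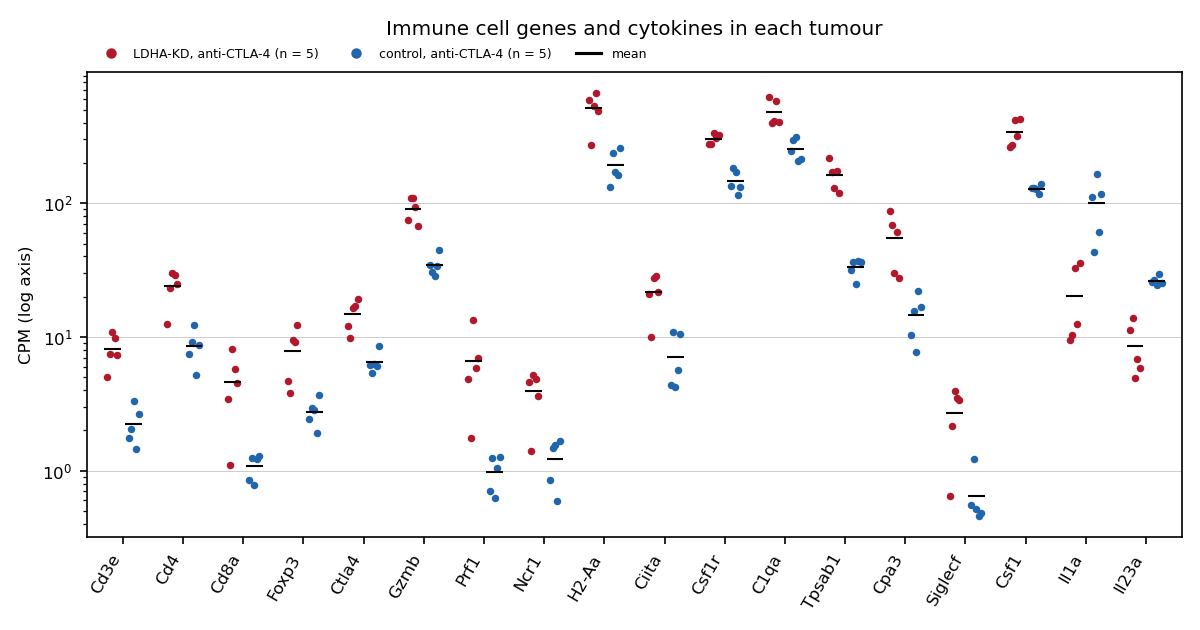
CPM on a log axis of genes of T cells, natural killer cells, antigen-presenting cells, macrophages, mast cells and eosinophils and of 3 cytokines in each anti-CTLA-4 tumour, LDHA-KD left of control, with a bar at each group's mean. LDHA-KD points lie above control points for most genes, overlap by 1 tumour for Cd8a, Ncr1, Ciita and Siglecf, and lie below for Il1a and Il23a.

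Genes of antigen presentation by MHC class II were higher as a group. Class II molecules present peptides to CD4 T cells, and their genes share a promoter module that holds a CCAAT box bound by NF-Y and are switched on by the coactivator CIITA. All 10 genes tested of the 11 listed rose, with a median of 1.39. H2-Aa (chromosome 17, 34282744 to 34287823, minus strand), a class II alpha chain, had 595, 273, 538, 666 and 493 CPM in LDHA-KD tumours, against 133, 236, 170.1, 162 and 258 CPM in control tumours (log2 fold change 1.42, SE 0.24, adjusted p = 1.67e-04). Ciita (chromosome 16, 10480059 to 10528418, plus strand) had 20.9, 10.1, 27.5, 28.8 and 21.5 CPM in LDHA-KD tumours, against 4.41, 10.9, 4.2, 5.66 and 10.6 CPM in control tumours (log2 fold change 1.61, SE 0.33, adjusted p = 7.61e-04). For both genes LDHA-KD replicate 2 stood lowest of its group, above every control tumour for H2-Aa and within the control range for Ciita. Cd74, the invariant chain that escorts class II molecules, averaged 795 ± 275 CPM in LDHA-KD tumours and 276 ± 65.7 CPM in control tumours (1.53, SE 0.25). Without LDHA-KD replicate 2, all 10 genes rose with a median of 1.57.

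The promoters of 2 class II genes are shown because the genes rose together and both hold the CCAAT box. They are RefSeq promoters of build GRCm38.p6 over the same window, H2-Aa at chr17:34287774-34288073 on the minus strand and H2-Eb1 at chr17:34305617-34305916 on the plus strand, with CCAAT or its reverse complement ATTGG in capitals.
H2-Aa: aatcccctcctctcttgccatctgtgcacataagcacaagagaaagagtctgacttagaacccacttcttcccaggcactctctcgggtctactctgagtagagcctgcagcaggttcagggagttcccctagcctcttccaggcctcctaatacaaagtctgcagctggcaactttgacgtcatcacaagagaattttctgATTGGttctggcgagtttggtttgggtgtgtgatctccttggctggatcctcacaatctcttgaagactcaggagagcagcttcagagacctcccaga
H2-Eb1: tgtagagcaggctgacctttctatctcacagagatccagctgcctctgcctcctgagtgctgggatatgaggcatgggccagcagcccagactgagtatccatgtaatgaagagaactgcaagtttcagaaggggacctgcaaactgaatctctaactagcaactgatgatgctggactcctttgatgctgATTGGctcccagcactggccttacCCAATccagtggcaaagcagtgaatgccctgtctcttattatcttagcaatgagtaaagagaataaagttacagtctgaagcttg
The box begins 48 bases before the start site in H2-Aa, and in H2-Eb1, which has 2 matches, they begin 59 and 35 bases before it. Of the 7 class II genes with a promoter in the table, 5 held CCAAT on either strand (71.4%), against 10248 of 27025 promoters (37.9%). H2-DMa and Ctss, which also rose, held 0 matches. Such a match describes the letters of the promoter and is no evidence of binding in these tumours. H2-Eb1 itself averaged 235 ± 78.2 CPM in LDHA-KD tumours and 79.9 ± 23.9 CPM in control tumours (1.56, SE 0.27).

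Class I presentation had fewer changes. Of 15 genes, 4 rose and 0 fell, with a median of 0.18, and 1 rose without replicates 3 and 5 of both groups. Nlrc5, the coactivator of class I genes, averaged 136 ± 36.0 CPM in LDHA-KD tumours and 70.1 ± 22.5 CPM in control tumours (0.96, SE 0.22). H2-Q7, a non-classical class I gene with close copies, had a log2 fold change of 0.75, SE 0.22, and did not pass without those 4 libraries (adjusted p = 0.169). Genes induced by interferon had no common direction, with 3 of 24 higher and 3 lower. The count lower was 0 without replicates 3 and 5 of both groups, without LDHA-KD replicate 2, without control replicate 5, or when libraries were scaled by total counts, and 1 without control replicate 3. The count higher was 1 without any one of LDHA-KD replicates 3 and 5 and control replicates 1, 3 and 4. Cxcl9, the interferon-induced chemokine that attracts T cells, averaged 108 ± 43.5 CPM in LDHA-KD tumours and 48.1 ± 35.1 CPM in control tumours (1.18, adjusted p = 0.0352) and failed under 7 of 27 other settings. Ifit3, an antiviral protein of the type I response, averaged 22.9 ± 2.89 CPM in LDHA-KD tumours and 34.4 ± 4.79 CPM in control tumours (-0.59, adjusted p = 0.0283) and lost its call under 5 of 27 settings. Cd274, the checkpoint ligand PD-L1, passed (0.89, adjusted p = 0.0276), but not without LDHA-KD replicate 3 or 5 or without control replicate 1, 3 or 4.

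Macrophage genes were also higher. Of 16 tested, 13 rose and 0 fell, with a median of 0.82. In 11 every LDHA-KD tumour lay above every control tumour, against 11.6% of all genes tested. Csf1r, the receptor of the macrophage growth factor, had 277, 277, 335, 309.8 and 322 CPM in LDHA-KD tumours, against 135, 182, 172, 115 and 132 CPM in control tumours (log2 fold change 1.05, SE 0.15, adjusted p = 2.86e-05). C1qa (chromosome 4, 136895917 to 136898803, minus strand), a chain of the complement protein C1q made by tissue macrophages, had 627, 396, 415, 578 and 407 CPM in LDHA-KD tumours, against 245, 299, 315, 206 and 215 CPM in control tumours (log2 fold change 0.92, SE 0.16, adjusted p = 2.28e-04). Of 9 Fc receptor genes tested, 8 rose, among them Fcgr2b, the inhibitory receptor (0.81, SE 0.09), and Fcgr1, the high-affinity receptor (0.97, SE 0.16). Both activating and inhibitory Fc receptors were thus among those that rose. Of 15 genes of complement and lysosomal lipid handling, 9 rose and 0 fell; Apoe, an apolipoprotein of lipid-laden macrophages, averaged 1062 ± 223 CPM in LDHA-KD tumours and 531 ± 127 CPM in control tumours (1.0, SE 0.18), and Cfp, properdin, averaged 138 ± 26.1 CPM in LDHA-KD tumours and 62.5 ± 9.19 CPM in control tumours (1.14, SE 0.13).

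Dendritic cell genes included some that fell. Of 14, 11 rose and 2 fell. Ccr7, the receptor that guides dendritic cells and T cells to lymph nodes, averaged 17.0 ± 3.65 CPM in LDHA-KD tumours and 6.33 ± 2.25 CPM in control tumours (1.43, SE 0.26), and Siglech, a receptor of plasmacytoid dendritic cells, averaged 4.25 ± 1.76 CPM in LDHA-KD tumours and 1.31 ± 0.412 CPM in control tumours (1.70, SE 0.30). Xcr1, the receptor of cross-presenting dendritic cells, passed (0.96, adjusted p = 0.0178), but not without LDHA-KD replicate 1. Zbtb46, a transcription factor of classical dendritic cells that endothelium also expresses, fell (-0.46, SE 0.11), as did Fscn1, fascin, which tumour cells also express (-0.44, SE 0.11). Ccl22, a chemokine of dendritic cells and macrophages that attracts regulatory T cells, averaged 27.1 ± 9.65 CPM in LDHA-KD tumours and 10.3 ± 4.05 CPM in control tumours (1.40, SE 0.29).

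Mast cell genes were higher. All 11 tested rose, with a median of 1.49. In 9 every LDHA-KD tumour lay above every control tumour, against 11.6% of all genes tested. Tpsab1 (chromosome 17, 25343245 to 25345562, minus strand), a mast cell tryptase, had 218, 170.3, 130.4, 174 and 119 CPM in LDHA-KD tumours, against 31.6, 36.6, 25.1, 37.3 and 36.2 CPM in control tumours (log2 fold change 2.28, SE 0.19, adjusted p = 4.66e-08). Cpa3 (chromosome 3, 20215620 to 20242181, minus strand), carboxypeptidase A3 of their granules, had 88.2, 68.2, 30, 60.7 and 27.8 CPM in LDHA-KD tumours, against 10.4, 15.6, 7.73, 22.0 and 16.8 CPM in control tumours (log2 fold change 1.92, SE 0.31, adjusted p = 8.88e-05). LDHA-KD replicates 3 and 5 had the lowest level of both genes within their group and still exceeded every control tumour. Mrgprb1, a receptor of a family found in mouse mast cells, averaged 6.99 ± 3.41 CPM in LDHA-KD tumours and 0.654 ± 0.273 CPM in control tumours (3.41, SE 0.43). Reads of Tpsab1 may be shared with the neighbouring tryptase Tpsb2 (1.92, SE 0.20).

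Eosinophil genes rose at low levels. Of 6 genes tested of 9 listed, 5 rose and 0 fell, with a median of 2.52, and 3 rose without replicates 3 and 5 of both groups. Siglecf (chromosome 7, 43351341 to 43359531, plus strand), a surface receptor of eosinophils, had 0.651, 2.16, 3.93, 3.48 and 3.38 CPM in LDHA-KD tumours, against 0.558, 1.22, 0.519, 0.456 and 0.483 CPM in control tumours (log2 fold change 2.05, SE 0.48, adjusted p = 0.00229). LDHA-KD replicate 1 lay within the control range, and without replicates 3 and 5 of both groups the log2 fold change was 1.47 and did not pass. Alox15, a lipoxygenase of eosinophils and macrophages, averaged 8.21 ± 4.66 CPM in LDHA-KD tumours and 1.13 ± 0.507 CPM in control tumours (2.84, SE 0.52), with 2.26 without those 4 libraries. Neutrophil genes did not follow: of 13 tested, 0 rose and 1 fell, with 1 higher without LDHA-KD replicate 1 or 2. The gene that fell was Mmp9, a collagenase that tumour cells and macrophages also make, with 277 ± 147 CPM in LDHA-KD tumours and 657 ± 200.4 CPM in control tumours (-1.25, SE 0.31). S100a8 (0.16, adjusted p = 0.693) and S100a9 (0.14, adjusted p = 0.744), the calprotectin subunits abundant in neutrophils, did not pass.

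Inflammatory cytokines had no common direction. Of 16 genes tested, 3 rose and 4 fell, and 5 rose without control replicate 5. The counts of 3 and 4 lay near the shares over all genes tested, 20.2% higher and 19.8% lower. Csf1 (chromosome 3, 107741048 to 107760469, minus strand), the growth factor of macrophages, had 264, 272, 419, 317 and 429 CPM in LDHA-KD tumours, against 129.9, 130.3, 128, 117 and 138 CPM in control tumours (log2 fold change 1.40, SE 0.12, adjusted p = 5.61e-08). Il1a (chromosome 2, 129299610 to 129309972, minus strand), the alarm cytokine interleukin-1 alpha, had 9.51, 10.4, 32.7, 12.6 and 35.5 CPM in LDHA-KD tumours, against 112, 43.4, 165, 61.4 and 116 CPM in control tumours (log2 fold change -2.31, SE 0.41, adjusted p = 2.44e-04). Il23a (chromosome 10, 128296139 to 128298752, minus strand), the p19 subunit of interleukin-23, had 11.3, 13.9, 4.91, 6.86 and 5.83 CPM in LDHA-KD tumours, against 25.7, 26.7, 24.3, 29.6 and 25.2 CPM in control tumours (log2 fold change -1.62, SE 0.23, adjusted p = 1.93e-05). In all 3 genes the groups did not overlap, and Il1a was highest in replicates 3 and 5 within both groups. Il12b, the p40 subunit shared by interleukin-12 and interleukin-23, averaged 1.31 ± 0.459 CPM in LDHA-KD tumours and 0.468 ± 0.205 CPM in control tumours (1.46, SE 0.34), and Csf2, the growth factor GM-CSF, averaged 1.56 ± 0.630 CPM in LDHA-KD tumours and 3.16 ± 1.08 CPM in control tumours (-1.02, SE 0.28). Of 21 chemokine genes tested, 3 rose and 0 fell, with a median of 0.39, or 0.04 without replicates 3 and 5 of both groups; 6 rose without LDHA-KD replicate 2 and 5 with the replicate numbers as a block.

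Vascular genes were lower in part. Of 15 endothelial genes, 8 fell and 1 rose, with a median of -0.41, and 5 fell when libraries were scaled by total counts. Emcn (chromosome 3, 137341067 to 137432185, plus strand), endomucin of veins and capillaries, had 22.6, 21.3, 24.5, 20.7 and 19.1 CPM in LDHA-KD tumours, against 51.6, 44.4, 41.3, 54.7 and 55.9 CPM in control tumours (log2 fold change -1.19, SE 0.12, adjusted p = 7.21e-07). Cldn5, the claudin of endothelial tight junctions, averaged 4.15 ± 1.06 CPM in LDHA-KD tumours and 9.94 ± 0.431 CPM in control tumours (-1.26, SE 0.16). Pecam1 (-0.11, adjusted p = 0.501) and Kdr (-0.25, adjusted p = 0.285), an adhesion molecule and the main VEGF receptor of endothelium, did not pass. The gene that rose was Eng, a TGF-beta co-receptor that macrophages also express, with 98.7 ± 12.4 CPM in LDHA-KD tumours and 65.4 ± 5.25 CPM in control tumours (0.59, SE 0.11). Of 10 genes of pericytes and smooth muscle, 5 fell and 0 rose; Cspg4, the pericyte proteoglycan NG2, averaged 3.95 ± 1.18 CPM in LDHA-KD tumours and 12.7 ± 2.71 CPM in control tumours (-1.68, SE 0.19), and Acta2, smooth muscle actin, averaged 79.3 ± 24.1 CPM in LDHA-KD tumours and 155 ± 32.3 CPM in control tumours (-0.97, SE 0.17).

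Fibroblast genes had no common direction. Of 15, 4 rose and 1 fell. Pdgfra, a receptor that marks fibroblasts, averaged 173 ± 19.2 CPM in LDHA-KD tumours and 98.0 ± 20.8 CPM in control tumours (0.82, SE 0.13), and Dcn, the matrix proteoglycan decorin, averaged 340.2 ± 145 CPM in LDHA-KD tumours and 191 ± 51.3 CPM in control tumours (0.83, SE 0.23). Fbln2, the matrix protein fibulin-2, averaged 480.3 ± 172 CPM in LDHA-KD tumours and 785 ± 86.8 CPM in control tumours (-0.71, SE 0.19). Of 18 collagen genes, 2 fell and 0 rose, with a median of 0.02. Without replicates 3 and 5 of both groups, 4 fell, with a median of -0.33; 4 also fell without LDHA-KD replicate 3, and 2 rose without control replicate 2. The 2 that fell among all 10 tumours were Col8a1, a short-chain collagen of vessel walls (-1.07, SE 0.17), and Col7a1, the anchoring fibril collagen beneath epithelia (-0.74, SE 0.15), while Col1a1 had a log2 fold change of -0.08, adjusted p = 0.823.

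Markers of neighbouring tissue were checked beside these groups, and their part in the results was not tested. Of 11 adipocyte genes, 2 fell and 0 rose, with a median of -1.21. Without replicates 3 and 5 of both groups, 0 fell and 1 rose, with a median of 0.39; without control replicate 4, 5 fell. Their summed level ran from 138.6 to 265.5 CPM in LDHA-KD tumours and from 143 to 998 CPM in control tumours, where replicate 5 was highest. Fabp4 (-1.42) and Retn (-2.25), the adipocyte genes that passed, did not pass without that replicate, where again 0 fell and 1 rose. Of 11 skeletal muscle genes, 2 fell and 0 rose, with sums from 62.5 to 93.1 CPM in LDHA-KD tumours and from 53.1 to 113.6 CPM in control tumours. Of 8 milk and mammary gland genes tested, 0 passed, or 1 in the direction of higher levels without replicates 3 and 5 of both groups, with sums from 12.6 to 102.3 CPM in LDHA-KD tumours and from 1.82 to 139.6 CPM in control tumours. Of 6 erythroid genes tested, 2 fell and 0 rose; 1 fell when libraries were scaled by total counts, without replicates 3 and 5 of both groups, or without any one of LDHA-KD replicates 1 to 4 and control replicates 1, 3 and 5, and 4 fell without control replicate 2. Their sums ran from 57.9 to 155.4 CPM in LDHA-KD tumours and from 86.5 to 219.9 CPM in control tumours. Of 6 keratinocyte and skin genes tested, 1 rose and 2 fell, and the one that rose lost its call under 10 settings, LDHA-KD replicate 1 or 4 or any control replicate left out among them. Sums ran from 7.43 to 39.1 CPM in LDHA-KD tumours and from 23.3 to 37.2 CPM in control tumours; Krt2 of the epidermis had 0 counts in all samples. Immediate early genes, which respond to tissue handling, had 5 of 14 higher and 0 lower. With replicates 3 and 5 of both groups left out, 0 were higher and 1 lower; with LDHA-KD replicate 5 left out, 2 were higher and 2 lower; and with LDHA-KD replicate 3 left out, 3 were higher and 1 lower. Leaving out control replicate 4 or 5 gave 3 higher, and leaving out control replicate 2 gave 1 lower. Their sums ran from 625 to 1233 CPM in LDHA-KD tumours and from 669 to 1107 CPM in control tumours.

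Balances between cell types were compared within tumours as log2 ratios of counts. Cd3e to Ptprc, T cells within all leukocytes, stood at -4.83 ± 0.33 in LDHA-KD tumours and -5.71 ± 0.37 in control tumours (SD, n = 5 each; exact permutation test, two-sided, p = 0.0159, or 0.111 when adjusted over 7 ratios). Cd8a to Foxp3 stood at -0.90 ± 0.67 in LDHA-KD tumours and -1.34 ± 0.46 in control tumours (exact permutation test, p = 0.27, adjusted 0.463). Foxp3 to Cd3e stood at -0.13 ± 0.62 in LDHA-KD tumours and 0.33 ± 0.31 in control tumours (exact permutation test, p = 0.167, adjusted 0.389). None of the 7 ratios passed after adjustment, and the smallest p that 5 against 5 allows is 0.00794, at which a lone ratio could not pass 0.05 after adjustment over 7. Gzmb to Cd3e stood at 3.51 ± 0.34 in LDHA-KD tumours and 3.98 ± 0.55 in control tumours (exact permutation test, p = 0.167, adjusted 0.389), and Foxp3 to Cd4 at -1.68 ± 0.59 in LDHA-KD tumours and -1.61 ± 0.31 in control tumours (exact permutation test, p = 0.841, adjusted 0.841). For Ifng to Cd3e the values were -2.02 ± 0.77 in LDHA-KD tumours and -1.34 ± 1.28 in control tumours (exact permutation test, p = 0.333, adjusted 0.463). Adgre1 to Ptprc, macrophages within all leukocytes, had -1.58 ± 0.51 in LDHA-KD tumours and -1.36 ± 0.31 in control tumours (exact permutation test, p = 0.397, adjusted 0.463).

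The same comparison in the IgG tumours used other samples of the same 2 lines. There, 5752 of the 16763 genes passed (34.3%), 2814 of them higher (16.8%) and 2938 lower (17.5%). More than 2-fold higher were 858 (5.12%), and more than 2-fold lower were 612 (3.65%). Of the 3390 genes higher under anti-CTLA-4, 2376 (70.1%) were also called higher under IgG, and of the 3321 lower, 2351 (70.8%) were also called lower. The 4727 genes called in the same direction in both made up 70.4% of the calls under anti-CTLA-4 and 82.2% of those under IgG, and 0 genes were called in opposite directions. Among the 1398 genes past 2-fold under anti-CTLA-4, 1131 (80.9%) were called in the same direction under IgG. Across all 16763 genes the log2 fold changes correlated with Pearson's r = 0.854 and Spearman's rho = 0.831, given as a description because genes are not independent replicates.

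Single genes stood side by side as follows. The log2 fold change under anti-CTLA-4 was -3.29 for Lama3, against -3.22 under IgG. It was 4.13 for Gnao1, against 4.08 under IgG, and 1.85 for Cd3e, against 2.06 under IgG. Of the 30 genes chosen above as the largest changes, 29 were called in the same direction under IgG. The exception was Prl3d1, with -2.49 under anti-CTLA-4 and -1.22 under IgG. The choice also required a mean log2 CPM of 1 or more over all 19 samples, those under IgG included. Larger changes outside it, such as those of Rps6-ps1 and Il5ra, are not among the 30. The test of the difference itself, the interaction of knockdown and treatment, called 0 of 16763 genes in edgeR, with 415 genes at an unadjusted p below 0.05. DESeq2 and limma voom also called 0, with 451 and 357 genes below that unadjusted level. The gene with the smallest interaction p was Stc1, the hormone stanniocalcin 1, with -1.21, SE 0.10 under anti-CTLA-4 and -1.92 under IgG, a difference of 0.71 (SE 0.15). A change with treatment in the difference between the 2 lines was therefore not detectable for any gene tested at this depth and number of samples.

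**Figure D5:**
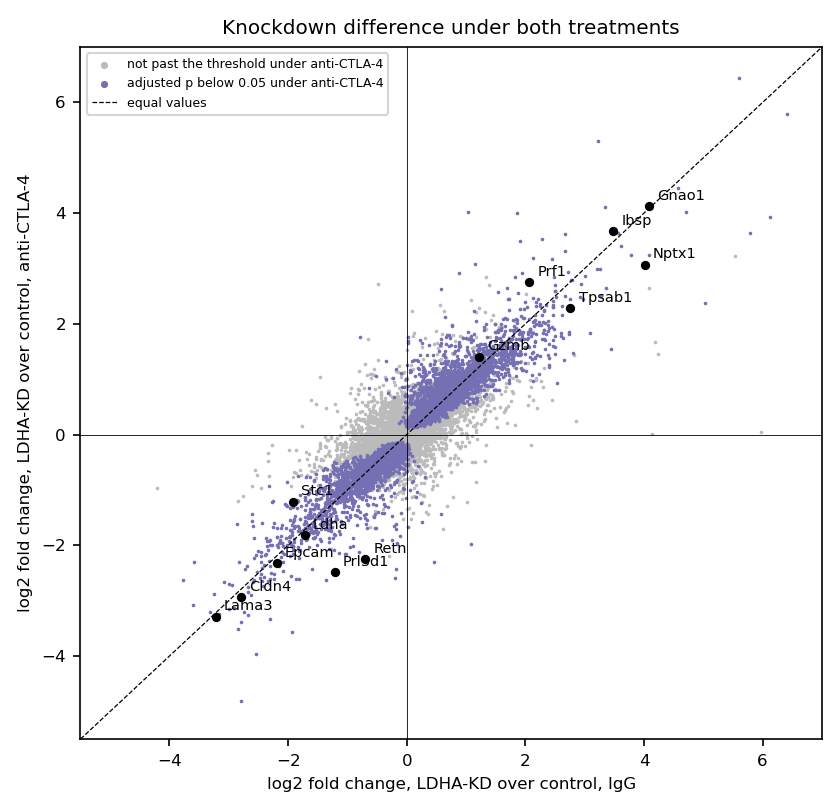
Log2 fold change of LDHA-KD over control tumours for 16763 genes, under anti-CTLA-4 on the vertical axis and under IgG on the horizontal axis. Purple points passed an adjusted p of 0.05 under anti-CTLA-4, the dashed line marks equal values, and named genes are in black; most points lie along the line (Pearson's r = 0.854).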

How the data were processed

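Polyadenylated RNA of 19 tumours had been sequenced as paired reads from a stranded library kit, and 10 of these tumours make up the comparison. The authors deposited raw counts per gene for all samples in 1 table, with no normalization. HTSeq 0.5.3 and Picard 1.124 (role not given) and build mm10 are named in the submitters' processing notes. Neither an aligner, nor an annotation release, nor whether counting used strand is given in the sources used here, so reads of antisense, overlapping or near-identical genes cannot be separated. Lines for reads without a gene were left out of totals and tests. Gene coordinates are from GENCODE M21 on GRCm38, matched by ID for 46488 of 46983 genes, and promoters are from RefSeq.

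The tests used edgeR 4.0.16 in R 4.3.3. All 19 samples entered 1 model with a coefficient per group, so that they share an estimate of the spread. Genes were filtered with filterByExpr, libraries scaled with TMM factors, and contrasts tested with the quasi-likelihood F test and Benjamini-Hochberg adjustment over 16763 genes (threshold 0.05). In simulated counts of 16606 genes, 99 were given a log2 change of 1 and 99 a log2 change of 2, in either direction. Of these, 79.8% and 96.0% were recovered, with 5 false calls. The real comparison called 40.0% of genes, a far larger share than was changed there. The simulated recovery and false calls therefore do not carry over to it. SE is the log2 fold change divided by the square root of F. CPM uses TMM-scaled totals. Within-sample ratios added 0.5 counts to each gene and were tested by two-sided exact permutation, adjusted over 7 ratios. Libraries were checked for copies, and none was found among 45 pairs.

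The comparison, the 52 gene lists (755 symbols, 723 tested) and the tests were chosen with earlier results of these data known. Genes named by rule were Ldha and Ldhb; Cd4, Cd8a, Foxp3, Ctla4, Gzmb and Ifng; the 15 largest changes in each direction among called genes whose mean log2 CPM was 1 or more, with all 25 tumour pairs in that direction and no predicted-gene or pseudogene name; from each list the 3 members with the smallest p and every called member against the list median; and the genes of the ratios. Other list members are examples chosen after their values were seen. Alternatives were RLE factors, total counts, no filter, DESeq2 1.42.0, limma 3.58.1 voom, the anti-CTLA-4 groups alone, replicate numbers as a block, and leaving out replicates.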

Additional observations from a re-analysis of the deposited data

Results flagged for a closer look

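Extreme tumours were sought in 492 groups of 5 tumours, from 239 genes and 7 ratios, each in both groups. The extreme tumour stood apart from the rest in 27, or 5.49%, where chance flags about 1 in 20. Values are CPM unless stated, and no explanation was tested. LDHA-KD replicate 2 accounted for 9 of them, each time as the lowest of its group. It had 98.1 CPM of H2-Ab1, against 265 to 287 CPM in the other LDHA-KD tumours, 104 CPM of H2-Eb1, against 232 to 296, and 29.6 CPM of H2-DMa, against 51.6 to 63.0. It also had 158 CPM of H2-Q6, 12.1 CPM of Ido1, 1.40 CPM of Ncr1, 77.0 CPM of Eng, 42.3 CPM of Fabp4 and 180.3 CPM of Wisp2. The first 3 are genes of class II presentation.

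Among the other LDHA-KD tumours, replicate 1 was lowest for Ccr8 (1.28 CPM) and Cd4 (12.6 CPM, against 23.4 to 29.9 in the others) and highest for Tpi1 (874 CPM). Replicate 3 was lowest for Dhcr7 (43.1 CPM), replicate 4 for Pdk3 (34.5 CPM) and replicate 5 for Col8a1 (52.5 CPM), while replicate 5 was highest for Shmt2 (125.5 CPM). Among control tumours, replicate 1 was lowest for Ctss (447 CPM) and Slc16a7 (0.852 CPM). Replicate 2 was lowest for Adamts1 (68.7 CPM), Ndufa1 (55.6 CPM) and Pdk3 (45.2 CPM) and highest for Siglecf (1.22 CPM, against 0.456 to 0.558). Replicate 3 was highest for Aurka (60.7 CPM) and lowest for the log2 ratio of Foxp3 to Cd3e (-0.22, against 0.39 to 0.52). Replicate 4 was lowest for Eomes (3.97 CPM) and highest for Rpe (99.1 CPM), and replicate 5 was highest for Cd274 (129.8 CPM, against 55.9 to 70.7).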

How the results depend on the processing

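The counts of 3390 genes higher and 3321 lower in LDHA-KD tumours stayed within 1.5 times under every setting but 1: without replicates 3 and 5 of both anti-CTLA-4 groups they were 2131 and 2177, with 60.2% of the calls kept, from 3 tumours a group. Leaving out 1 replicate gave 2896 to 3554 higher and 2836 to 3628 lower. Scaling by total counts gave 4445 higher and 2369 lower, which is 65.2% higher among the calls; the cause was not tested. RLE factors gave 3379 and 3323, DESeq2 3496 and 3505, limma voom 3307 and 3350, no filter 3259 and 2861 of 29653 genes, and the anti-CTLA-4 groups alone 2891 and 2797 of 15954 genes. The interaction called 0 genes under each setting that could give it. Same-numbered LDHA-KD and control tumours had correlations of their deviations of 0.188, 0.157, 0.245, -0.006 and 0.158, and not every tumour correlated best with its own number, so the numbers do not establish a pairing; the replicate block gave 3570 higher and 3574 lower. The same 239 genes were checked gene by gene, and 226 of them were called. List members named above but outside those 239, such as Ovol1, Dsp, Ocln, Lamb1, Izumo1r, Gzmf, Gzmg and Tbx21, were not checked in this way. Of the 226, 184 kept their call under each of the 27 settings that tested them. Il5ra, among the 184, was not tested with the anti-CTLA-4 groups alone. The other 42 lost their call under at least 1, and 0 of the 226 changed sign. Of the 13 not called, Adipoq changed sign to 0.028 and Lalba to 0.68 without replicates 3 and 5 of both groups, and Prlr to -0.24 without LDHA-KD replicate 3, up to 1.36 without control replicate 5. The log2 ratio of Foxp3 to Cd4 ranged with 1 replicate left out up to 0.166 without LDHA-KD replicate 2 and stood at 0.02 without control replicate 5. List medians near 0 also changed sign under some setting, among them those of WNT, collagen, fibroblast, neutrophil, interferon-induced, inflammatory cytokine, lactate and NRF2 genes, and the adipocyte median of -1.21 turned to 0.39 without replicates 3 and 5 of both groups. The keratinocyte and skin median of 0.84 turned to -0.36 without LDHA-KD replicate 4 and to -0.41 with the anti-CTLA-4 groups alone. Counts at 3 or fewer per library limit what can be read for genes near the floor, such as Il5ra in control tumours.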
